A study of Mus musculus with 6 samples.

Results

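The axon guidance ligands and receptors were the genes of the deposited table named as netrins, netrin receptors, netrin-G proteins, Slits, Robos, semaphorins of classes 3 to 7, neuropilins, plexins, ephrins and Eph receptors. Matching gene names to these family stems found 71 of the 31763 genes of the table, and 69 of the 71 reached 10 counts in 3 or more libraries and were tested. The other 2, Efna4 and Epha1, had 1 to 12 counts per library. RNA had been sequenced from the medial prefrontal cortex (mPFC) of male C57BL/6J mice aged 8 to 10 weeks, in 3 saline and 3 morphine samples. The saline group received saline (10 ml/kg, i.p.) and the morphine group morphine (10 mg/kg, i.p.) during conditioned place preference (CPP), a procedure in which the drug is paired with a compartment. Both groups went through 5 days of training, about a week in the home cage without drug and a retrieval test, and tissue was taken on day 13. The sources do not say whether a sample is 1 mouse or a pool, and bulk tissue mixes all cell types of the dissection. The comparison of morphine with saline asked which of these genes differed in mPFC RNA at the retrieval of a morphine-paired memory.

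Axon guidance molecules steer growing axons: a secreted or membrane-bound ligand is read by a receptor on the growth cone as attraction or repulsion. Netrins act through Dcc and the Unc5 receptors, Slits through Robos, class 3 semaphorins through neuropilins paired with plexins, and ephrins through Eph receptor tyrosine kinases. In the adult cortex many of these genes remain expressed, and several of their proteins are known to act on dendritic spines and synapses.

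The libraries held 17984153 to 23529592 counts, of which the 71 genes took 85712 to 111862. Markers of cortical neurons were present in every library. The 11 upper-layer genes summed to 187 FPKM in saline 1, the lowest, and to 212 to 238 FPKM in the other libraries. The 12 deep-layer genes summed to 105 FPKM in saline 1, the highest, and to 85.7 to 102 FPKM in the other libraries. The library saline 1 stood apart. Of 20 olfactory bulb genes, 15 were tested, and 14 of these 15 were over 1.5 times higher in saline 1 than in the next highest library. The summed level of the 20 genes was 197 FPKM in saline 1 against 69.2 to 76.5 FPKM in the other 5 libraries. The 3 most counted of them in saline 1 were Meis2 at 6999 counts, Synpr at 4358 and Tbr1 at 2952. Meis2 and Synpr were highest in saline 1 (Meis2 at 301 CPM against 133 to 144, and Synpr at 188 CPM against 83.9 to 105), whereas Tbr1, which cortical neurons also express, was lowest there at 127 CPM against 141 to 163. Eomes, a marker of mitral and tufted cells of the bulb, had 462 counts in saline 1 and 0 to 7 counts elsewhere. A list of 10 thalamic genes summed to 65.6 FPKM in saline 1 and 24.8 to 27.0 FPKM elsewhere. Few genes carried that sum: of the 8 tested, 2 were over 1.5 times higher in saline 1 than in the next highest library. Outside the bulb list, genes also highest in saline 1 included Calb2 of the thalamic list, Aqp1 of the choroid plexus list and Adarb2 of the interneuron list. Over 1.5 times the next library in saline 1 were 3 of 13 interneuron, 2 of 4 choroid plexus and 2 of 13 mural and meningeal genes tested. So was 1 gene each of the striatal, upper-layer, deep-layer, astrocyte and oligodendrocyte precursor lists. The oligodendrocyte, microglia and endothelial lists had 0, and over all genes tested the share was 2.39%. Genes of 13 lists of cell types were held to an unadjusted p under 0.05 in edgeR. Lower in morphine were Cdhr1, Th, Doc2g, Dlx2, Sp8 and Pcbp3 of the bulb list, and Calb2, Adarb2, Aqp1 and Cspg4. Higher were Ppp1r1b, Pde10a, Hs3st4, Cck, Aldh1l1, Opalin and Rgs5. These were 6 of 15 tested genes in the bulb list and 2 of 12 in the striatal list. Every other list gave at most 1 in each direction. Over all genes tested, 4.96% were lower and 2.77% higher at this threshold. Ppp1r1b and Pde10a are of the striatal list, whose 14 genes summed to 62.7 to 67.9 FPKM in saline and 68.5 to 72.0 FPKM in morphine, without overlap, and whose part in the results was not tested. Results on the guidance genes are therefore given with and without saline 1.

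Levels were compared between genes in FPKM, in which the count is divided by gene length and library size. Over the 6 libraries, 24 of the 71 genes had a mean level above 10 FPKM and 8 had a mean below 1 FPKM. Ephb6, a kinase-dead Eph receptor, was the highest at 55.8 FPKM, followed by the membrane-anchored semaphorin Sema7a at 46.9, the receptor Epha4 at 42.9 and the transmembrane semaphorin Sema6b at 34.8 FPKM. Behind these came the plexins Plxna1 at 24.3 and Plxna4 at 21.1 FPKM and the netrin receptor Unc5a at 20.6 FPKM. Secreted ligands were lower: Slit1 reached 15.4 FPKM, Sema3c 6.44 FPKM and the highest netrin, Ntn3, 3.04 FPKM. Ephb6 made up 76.7% of the summed level of the 5 EphB receptors, and Ntng2 77.0% of that of the pair of netrin-G genes. The 71 genes together summed to 627, 636 and 627 FPKM in saline 1 to 3 and to 646, 639 and 641 FPKM in morphine 1 to 3. The 3 morphine sums were the 3 highest, and the group means were 630 ± 5.45 and 642 ± 3.39 FPKM (SD, n = 3).

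**Figure D1:**
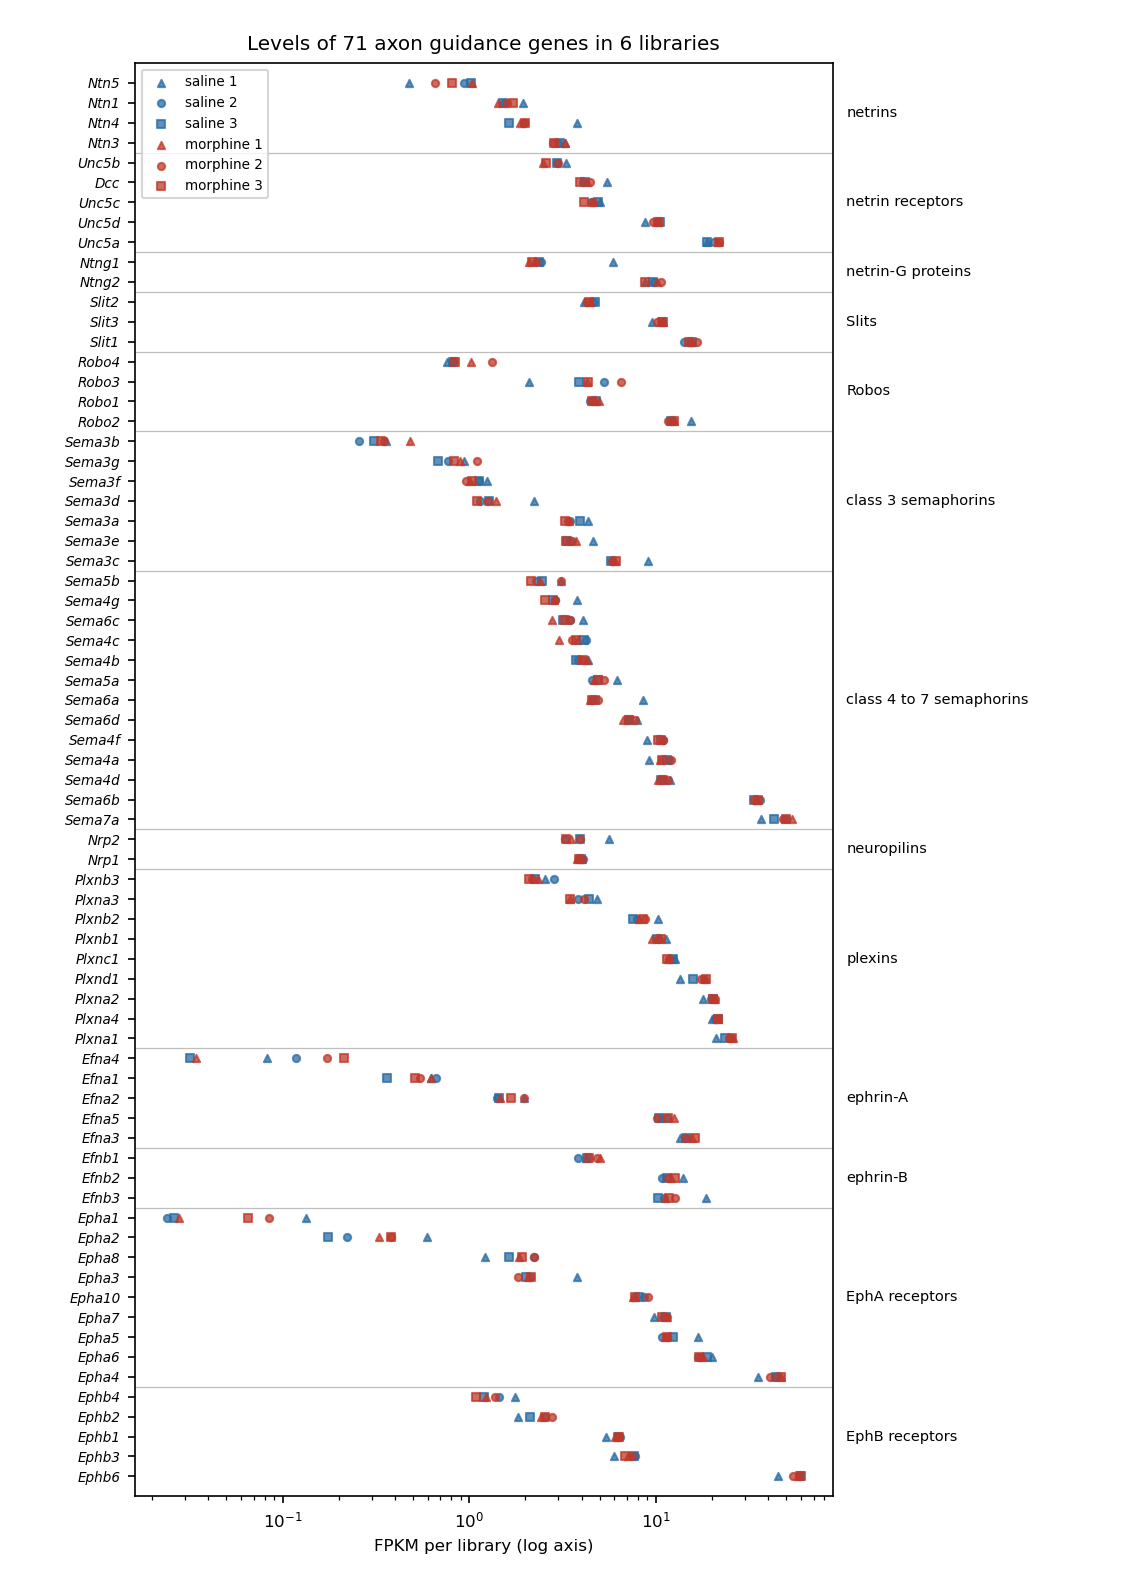
Level of each of the 71 genes in each library, in FPKM on a log axis, grouped by family (blue, saline; red, morphine; triangle, circle and square, replicates 1, 2 and 3). Ephb6 at a mean of 55.8 FPKM is the highest gene, and the points of saline 1 often lie outside those of the other 5 libraries.

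Saline 1 was the most extreme library for most of these genes. It was the highest of the 6 libraries for 31 of the 69 tested genes (44.9%, against 24.9% of all genes tested) and the lowest for 24 (34.8% against 22.1%), 55 in all. The median distance of a guidance gene from its mean over the other 5 libraries was 0.27 on the log2 scale in saline 1. Measured in the same way, it was 0.07 to 0.11 in the other libraries. Over all genes tested the same distance was 0.14 in saline 1 and 0.10 to 0.11 in the others. For 5 genes (7.25%, against 2.39% of all genes tested) saline 1 was over 1.5 times the next highest library: Ntn4, Ntng1, Sema3d, Sema6a and Epha3. Robo3, the divergent Robo receptor, went the other way, at 14.1 CPM (counts scaled to a common library size by TMM) in saline 1 and 26.5 to 44.1 CPM in the others. The part of the olfactory bulb genes in these deviations was not tested.

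**Figure D2:**
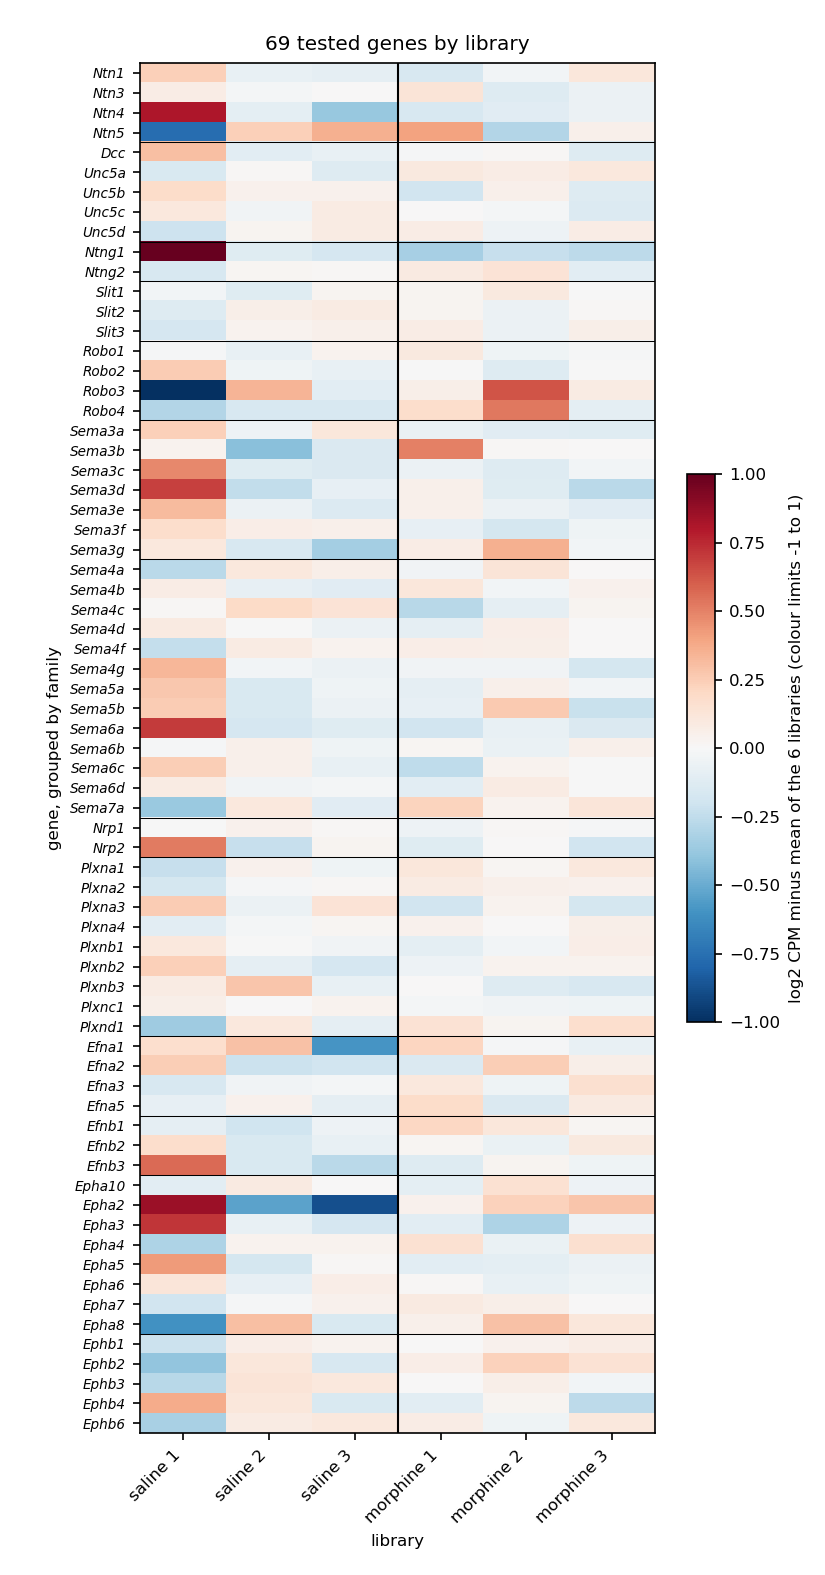
Log2 CPM of the 69 tested genes in each library minus the mean over the 6 libraries, with colour limits of -1 and 1, grouped by family. The column of saline 1 carries the strongest colours in both directions. Measured instead from the mean of the other 5 libraries, the median distance was 0.27 in saline 1 and 0.07 to 0.11 in the other libraries.

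Between morphine and saline, no guidance gene passed the test after adjustment, and the estimates were small. In edgeR, 0 of the 69 genes had an adjusted p under 0.05 (0.0% of all 18970 genes tested), the smallest adjusted p among them being 0.60. DESeq2 also called 0 of the 69, against 0.0844% of the 18956 genes it gave an unadjusted p. It gave no adjusted p to some of the 69, among them Ntn5 and Sema3b, which could therefore not be called. Of the 69, 36 had a higher and 33 a lower estimate in morphine. Their median log2 fold change was 0.00, against -0.01 over all genes tested, and the median size of the change was 0.10 in both sets. At an unadjusted p under 0.05 in edgeR, 6 were higher (8.7% of the 69, against 2.77% of all genes tested): Unc5a, Robo4, Sema7a, Plxna1, Efnb1 and Ephb2. At the same threshold 3 were lower (4.35% against 4.96%): Ntng1, Sema3a and Plxna3. DESeq2 gave 5 higher (7.25% against 2.0%), of which Unc5a, Sema7a, Plxna1 and Ephb2 were shared with edgeR and Plxnd1 was not, and 2 lower (2.9% against 3.13%), of which Sema3a was shared and Epha3 was not. The edgeR estimate passed 1.5-fold for Ntng1 alone (1.45% against 4.93%). The guidance genes were chosen with earlier results of these data known. The shares called, here and without saline 1, are therefore descriptions only.

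The standard error of the log2 fold change had a median of 0.10 over the 69 genes (range 0.05 to 0.40), and the 95% interval lay within 1.5-fold of no change for 54 genes. The 3 morphine libraries lay above the 3 saline libraries for Unc5a, Robo4, Plxna2 and Efnb1 (4 genes, 5.8% against 5.99% of all genes tested). They lay below for Ntng1, Sema3a, Sema3f and Plxnc1 (4 genes, 5.8% against 7.31%). Both shares are close to those of all genes tested.

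**Figure D3:**
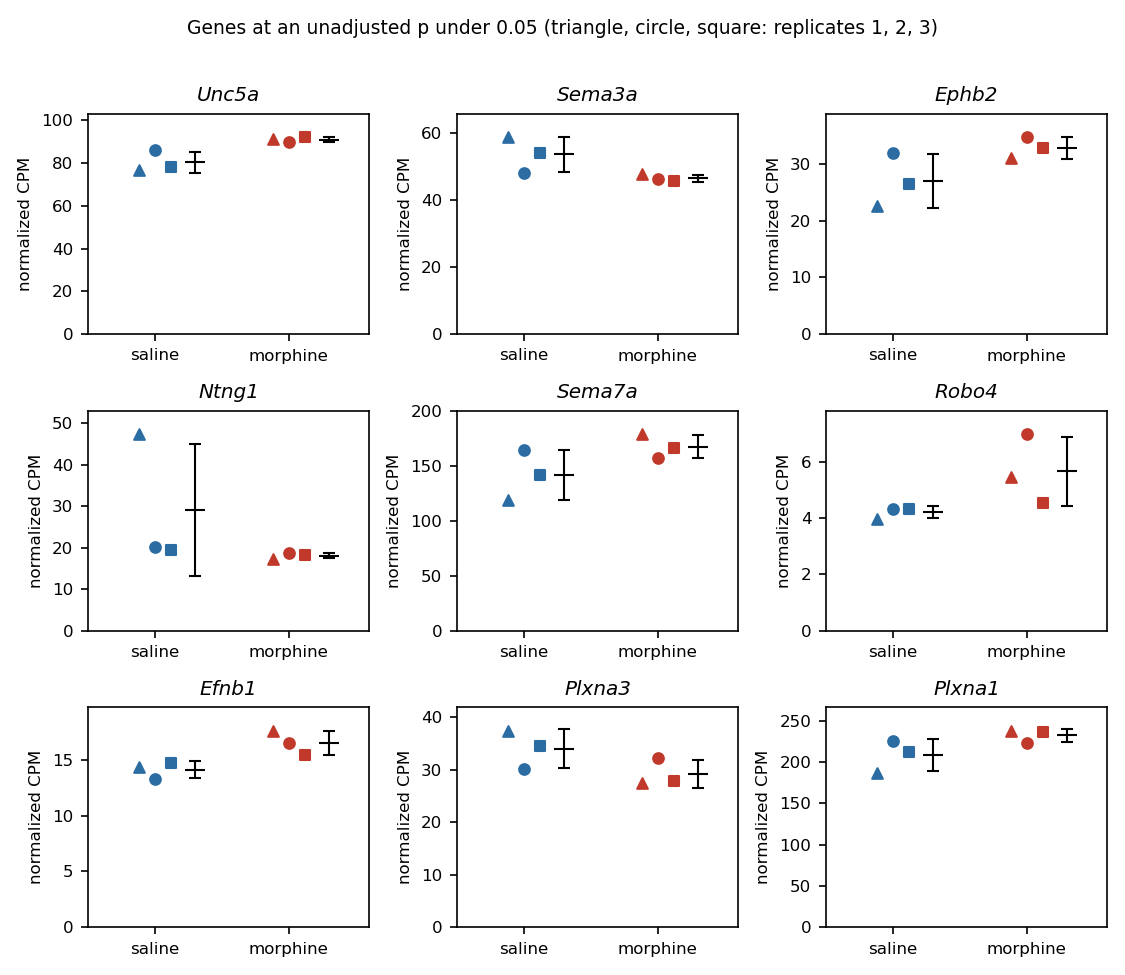
Normalized CPM in each library of the 9 genes with an unadjusted p under 0.05 in edgeR, from axes that start at 0; the black bars are the mean and SD of 3 libraries per group. The groups do not overlap for Unc5a, Sema3a, Ntng1, Robo4 and Efnb1, and saline 1 alone lies far from the rest for Ntng1.

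Unc5a, a receptor through which netrins repel axons, was the guidance gene with the smallest p. It lies on chromosome 13 (mm10, 54949411 to 55006018, plus strand). Its level was 77.0, 86.0 and 78.2 CPM in saline 1 to 3 and 91.3, 89.8 and 92.1 CPM in morphine 1 to 3. All morphine libraries lay above all saline libraries, and the morphine values were the more tightly grouped (91.0 ± 1.14 against 80.4 ± 4.92 CPM, SD, n = 3). The estimated log2 fold change was 0.18 ± 0.06 (SE), a level 13.3% higher, with an unadjusted p of 0.010 and an adjusted p of 0.60 in edgeR. With saline 1 left out it was 0.15, and with each library left out in turn it ran from 0.15 to 0.23, with an unadjusted p between 0.0028 and 0.038 in edgeR.

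Because Unc5a was past the unadjusted threshold under all 15 alternatives run, the sequence around its start is shown, from 250 bases before the RefSeq start to 50 after it (chr13:54949161-54949460, plus strand, GRCm38.p6, the build of mm10), with each CG dinucleotide in capitals.
Unc5a: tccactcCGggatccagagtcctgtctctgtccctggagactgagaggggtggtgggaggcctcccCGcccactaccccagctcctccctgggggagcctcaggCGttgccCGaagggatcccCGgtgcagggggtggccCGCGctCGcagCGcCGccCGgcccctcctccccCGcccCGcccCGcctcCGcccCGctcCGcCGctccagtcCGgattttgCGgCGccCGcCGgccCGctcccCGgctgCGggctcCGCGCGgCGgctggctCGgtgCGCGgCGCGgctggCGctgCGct
These 300 bases hold 37 CG dinucleotides, and 5.58% of the 32851 RefSeq promoters of this length hold at least as many. RefSeq promoters were found for 61 of the 71 genes. CG content describes the sequence only, and methylation was not measured here.

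The other netrin receptors did not pass the unadjusted threshold. Dcc, the receptor for attraction to netrin, was at 43.6, 32.9 and 33.6 CPM in saline and 35.0, 35.6 and 32.4 CPM in morphine, so that saline 1 alone was high. Unc5b and Unc5c had estimates below 0 (-0.18 ± 0.10 and -0.10 ± 0.06, SE) and Unc5d was at 0.06 ± 0.08. The netrins were low, and none of the 4 passed it. Ntn3 was at 16.3, 15.3 and 15.6 CPM in saline and 17, 14.2 and 14.9 CPM in morphine (log2 fold change -0.04 ± 0.10). Ntn4, a secreted netrin of basement membranes, was at 13.8 CPM in saline 1 and 6.07 to 7.61 CPM in the other 5 libraries, and its log2 fold change of -0.32 ± 0.26 became 0.12 without saline 1.

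Ntng1 and Ntng2 encode netrin-G1 and netrin-G2, membrane-anchored proteins of axons that bind netrin-G ligands across the synapse and not the classical netrin receptors. Ntng1 had the largest fold change of all 69 genes and rested on 1 library. It stood at 47.4, 20.1 and 19.5 CPM in saline 1 to 3 and at 17.3, 18.6 and 18.2 CPM in morphine 1 to 3. The groups did not overlap, but saline 2 and 3 lay just above the morphine libraries, and saline 1 was 2.36 times the next highest. Its log2 fold change was -0.69 ± 0.29 (SE; unadjusted p = 0.038, adjusted p = 0.63 in edgeR), and without saline 1 it was -0.13 ± 0.09 (unadjusted p = 0.18 in edgeR). Saline 1 was also the library in which 14 of the 15 tested olfactory bulb genes were high, and DESeq2 gave Ntng1 an unadjusted p of 0.12. With morphine 1, 2 or 3 left out the value stayed between -0.66 and -0.71, with an unadjusted p of 0.086 to 0.099 in edgeR. Ntng2 was at 34.2, 38.9 and 38.5 CPM in saline and 40.8, 42.1 and 35.6 CPM in morphine, with overlapping groups and a log2 fold change of 0.09 ± 0.08. Of the exon bases of Ntng2, 14% overlap a processed transcript annotated on the same strand, so reads there could be assigned to either.

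Among the Slits, repulsive ligands known from the midline, and their Robo receptors, Robo4 alone passed the unadjusted threshold in edgeR. Slit1 was at 89.2, 83.8 and 92.8 CPM in saline and 93.0, 97.3 and 90.5 CPM in morphine (log2 fold change 0.08 ± 0.06). Slit2 and Slit3 had log2 fold changes of -0.01 ± 0.06 and 0.05 ± 0.07. Robo2, the most abundant Robo at 12.7 FPKM, was at 256 CPM in saline 1 and 197 to 215 CPM in the other libraries, and its log2 fold change of -0.10 became 0.02 without saline 1. Robo1 had a log2 fold change of 0.03 ± 0.06. Robo3, at 14.1, 36.1 and 26.5 CPM in saline and 29.7, 44.1 and 30.2 CPM in morphine, had the highest estimate of the 69 genes, 0.44 ± 0.27 (unadjusted p = 0.14 in edgeR). Its groups overlapped, and without saline 1 the estimate was 0.14.

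Robo4, a Robo of endothelial cells, was low at 0.932 FPKM and was counted 85 to 127 times per library. It stood at 3.96, 4.33 and 4.34 CPM in saline and 5.47, 7 and 4.54 CPM in morphine. The groups did not overlap, and morphine 2 was the highest. Morphine over saline gave a log2 fold change of 0.42 ± 0.18 (unadjusted p = 0.042, adjusted p = 0.63 in edgeR), and it was 0.25 without morphine 2 (unadjusted p = 0.19 in edgeR). With saline 1, 2 or 3 or morphine 1 left out it was 0.38 to 0.45, at an unadjusted p of 0.064 to 0.071 in edgeR. The 12 endothelial markers summed to 56.4 to 63.9 FPKM in saline and 56.0 to 65.2 FPKM in morphine, morphine 2 being the highest. None of the 12 passed an unadjusted p under 0.05 in edgeR, and their part in the Robo4 value was not tested. In bulk RNA, a change in the number of cells of a type and a change in RNA per cell cannot be told apart.

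Among the class 3 semaphorins, the secreted ligands of the neuropilin and plexin complex, 5 of 7 estimates were below 0 over all libraries and 2 of 7 without saline 1, and Sema3a was the only one past the unadjusted threshold. Sema3a, the growth cone collapsing semaphorin, was at 58.8, 48.2 and 54.1 CPM in saline and 47.8, 46.2 and 45.8 CPM in morphine. The groups did not overlap, and saline 2 and morphine 1 were nearly level. The log2 fold change was -0.21 ± 0.08 (unadjusted p = 0.022, adjusted p = 0.62 in edgeR), a change of -13.3%, with 46.6 ± 1.06 CPM in morphine against 53.7 ± 5.32 CPM in saline (SD, n = 3). It was -0.13 without saline 1 (unadjusted p = 0.066 in edgeR), and the unadjusted p was 0.055 to 0.068 without saline 3, morphine 2 or morphine 3, at -0.19 to -0.20. Sema3f was at 6.33, 5.89 and 5.82 CPM in saline and 5.30, 4.96 and 5.45 CPM in morphine, groups that did not overlap (log2 fold change -0.20 ± 0.13, unadjusted p = 0.17 in edgeR). Sema3c and Sema3d were high in saline 1 alone. Sema3c was at 63.2 CPM there and 41.0 to 44.6 CPM elsewhere, Sema3d at 18.6 CPM and 9.64 to 12 CPM, and their log2 fold changes of -0.17 and -0.29 became 0.06 and 0.05 without that library.

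The 13 membrane-bound semaphorins of classes 4 to 7 held 1 gene past the threshold. Sema7a, which is anchored by a lipid tail and binds plexin C1 and integrins, was at 119, 165 and 142 CPM in saline and 179, 157 and 167 CPM in morphine. Saline 1 was the lowest library, and saline 2 lay within the morphine range. The log2 fold change was 0.24 ± 0.10 (unadjusted p = 0.038, adjusted p = 0.63 in edgeR), and 0.13 without saline 1 (unadjusted p = 0.054 in edgeR). Without saline 3, morphine 1 or morphine 3 the unadjusted p was 0.072 to 0.14 in edgeR, at log2 fold changes of 0.19 to 0.25. The log2 fold change was 0.36 without saline 2 and 0.28 without morphine 2 (unadjusted p = 0.0019 and 0.042 in edgeR). Sema6a, a transmembrane repellent, was at 73.3 CPM in saline 1 and 39.3 to 42.8 CPM in the other 5 libraries. Its log2 fold change of -0.34 ± 0.19 was 0.01 without saline 1. Sema6b, the second most abundant semaphorin, was at 134 to 143 CPM in saline and 132 to 143 CPM in morphine (0.00 ± 0.05).

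Neuropilins and plexins, the receptors for semaphorins, had log2 fold changes from -0.24 to 0.22. Nrp1 was at 38.5, 39.7 and 39.0 CPM in saline and 37.3, 38.8 and 38.4 CPM in morphine, with a 95% interval of the log2 fold change from -0.17 to 0.10. Nrp2 was high in saline 1 alone, at 65.5 CPM against 38.9 to 46.5 CPM. Its log2 fold change was -0.24 over all libraries and stayed below 0 without saline 1. The summed level of the 9 plexins was 114, 120 and 118 FPKM in saline and 122, 121 and 122 FPKM in morphine. These sums did not overlap, and saline 1 was the lowest.

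Plxna1, a co-receptor of neuropilins, was at 187, 226 and 213 CPM in saline and 238, 222 and 236 CPM in morphine. Saline 1 was again low, and saline 2 lay above morphine 2. The log2 fold change was 0.15 ± 0.07 (unadjusted p = 0.049, adjusted p = 0.64 in edgeR) and 0.08 without saline 1 (unadjusted p = 0.12 in edgeR). It was 0.14 to 0.17 without saline 3, morphine 1 or morphine 3, at an unadjusted p of 0.067 to 0.14 in edgeR. An antisense gene, Gm26811, overlaps 10.7% of its exon bases, and whether counting used strand is not stated in these sources. Plxna2 was at 303, 339 and 345 CPM in saline and 361, 354 and 352 CPM in morphine, and all morphine libraries were higher (log2 fold change 0.11 ± 0.06, unadjusted p = 0.080 in edgeR). Plxna3, which is X-linked, went the other way from Plxna1. It was at 37.4, 30.2 and 34.5 CPM in saline and 27.6, 32.2 and 27.9 CPM in morphine, with overlapping groups (log2 fold change -0.22 ± 0.10, unadjusted p = 0.044, adjusted p = 0.64 in edgeR). Without saline 1 it was -0.15 (unadjusted p = 0.11 in edgeR), and without saline 3, morphine 1 or morphine 3 it was -0.18 to -0.21 (unadjusted p = 0.099 to 0.14 in edgeR). Plxnd1, the receptor of Sema3e, was at 96.4, 133 and 116 CPM in saline and 136, 126 and 139 CPM in morphine. Saline 1 was the lowest library and saline 2 lay within the morphine range, with a log2 fold change of 0.22 ± 0.10 (unadjusted p = 0.052 in edgeR and 0.027 in DESeq2) and 0.10 without saline 1 (unadjusted p = 0.10 in edgeR). Plxnc1, the receptor of Sema7a, was at 104, 100 and 102 CPM in saline and 98.6, 97.4 and 96.9 CPM in morphine. Its groups did not overlap, but the difference was -0.07 ± 0.05 on the log2 scale (unadjusted p = 0.19 in edgeR).

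Ephrins are membrane-bound ligands that signal in both directions, ephrin-A proteins on a lipid anchor and ephrin-B proteins across the membrane. The ephrin-A ligand of highest level, Efna3 at 14.7 FPKM, was at 32.0, 34.9 and 35.3 CPM in saline and 38.4, 34.8 and 40.0 CPM in morphine (log2 fold change 0.15 ± 0.08, unadjusted p = 0.079 in edgeR). The other tested ephrin-A genes gave log2 fold changes of 0.03 to 0.09. Of the exon bases of Efna3, 14.1% overlap the antisense gene Gm15998.

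Of the 3 ephrin-B genes, Efnb1 passed the unadjusted threshold in edgeR with all libraries, and Efnb2 and Efnb3 passed it without saline 1. Efnb1, on the X chromosome, was at 14.3, 13.2 and 14.7 CPM in saline and 17.6, 16.5 and 15.4 CPM in morphine, with no overlap. Its log2 fold change was 0.23 ± 0.10 (unadjusted p = 0.042, adjusted p = 0.63 in edgeR), or 17% higher, and 0.24 without saline 1 (unadjusted p = 0.038 in edgeR). Without saline 2, morphine 1 or morphine 2 it was 0.18 to 0.23, at an unadjusted p of 0.074 to 0.14 in edgeR. Efnb2 was at 93.6, 74.5 and 78.9 CPM in saline and 83.9, 79.4 and 88.4 CPM in morphine. Efnb3 was at 58.3, 35.4 and 32.5 CPM in saline and 35.9, 40.1 and 38.2 CPM in morphine. Both were highest in saline 1, and saline 2 and 3 lay below all 3 morphine libraries, in both cases narrowly. Over all 6 libraries their log2 fold changes were 0.03 ± 0.08 and -0.15 ± 0.18, and without saline 1 they were 0.13 ± 0.06 and 0.16 ± 0.08 (unadjusted p = 0.038 and 0.041 in edgeR). In DESeq2 the unadjusted p of Efnb1 was 0.075 with all libraries and 0.080 without saline 1, and that of Efnb3 was 0.087 without saline 1.

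EphA receptors gave no gene past the threshold in edgeR with all libraries. Epha4, which binds ephrins of both classes, was at 277, 352 and 352 CPM in saline and 381, 328 and 383 CPM in morphine, with overlapping groups (log2 fold change 0.15 ± 0.09, and 0.05 without saline 1). Epha3 was at 32.2 CPM in saline 1 and 15.8 to 18.9 CPM elsewhere, and its log2 fold change of -0.37 ± 0.21 was -0.03 without saline 1 (unadjusted p with all libraries = 0.10 in edgeR and 0.049 in DESeq2). Epha5 was likewise at 275 CPM in saline 1 and 181 to 206 CPM elsewhere.

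Ephb2, an EphB receptor tyrosine kinase that interacts with NMDA receptors at synapses, was at 22.6, 32.0 and 26.5 CPM in saline and 31.0, 34.8 and 32.9 CPM in morphine. Saline 2 lay within the morphine range, and saline 1 was the lowest. The log2 fold change was 0.28 ± 0.12 (unadjusted p = 0.034, adjusted p = 0.62 in edgeR), or 21.8% higher, and 0.17 without saline 1 (unadjusted p = 0.065 in edgeR). Without saline 3, morphine 2 or morphine 3 it was 0.24 to 0.28, at an unadjusted p of 0.076 to 0.11 in edgeR. The log2 fold change was 0.42 without saline 2 and 0.32 without morphine 1 (unadjusted p = 0.0021 and 0.045 in edgeR). Ephb6 was at 168 CPM in saline 1 and 204 to 226 CPM in the other libraries, and its log2 fold change was 0.08 ± 0.10 over all libraries and -0.04 without saline 1. The other EphB receptors, Ephb1, Ephb3 and Ephb4, did not pass the threshold.

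Without saline 1, the set of genes past the unadjusted threshold changed. In edgeR, 6 genes were higher (8.7%, against 4.14% of the 18671 genes then tested): Unc5a, Efnb1, Efnb2, Efnb3, Plxnb2 and Epha2. Of these 6, Unc5a and Efnb1 were also among the 6 found with all libraries. Sema4c was lower (1 gene, 1.45% against 7.53%), at 17.2, 19.5 and 18.8 CPM in saline and 14.1, 16.1 and 17.5 CPM in morphine, with a log2 fold change of -0.22 over all libraries and -0.26 without saline 1. Plxnb2, a receptor of class 4 semaphorins, was at 61.6 and 58.2 CPM in saline 2 and 3 and at 63.2, 67.2 and 67.0 CPM in morphine, with 77.4 CPM in saline 1. Epha2 was counted only 16 to 63 times per library. After adjustment 0 of the 69 passed (0.996% of all genes then tested). The median log2 fold change of the guidance genes was 0.03 without saline 1, against 0.00 over all genes. Efnb2, Plxnb2, Epha2, Sema4c, Robo1, Robo3, Dcc, Unc5b, Unc5c, Unc5d, Slit2, Slit3, Sema6b, Plxna4, Plxnd1, Nrp2 and Epha5 were named after their values were seen.

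**Figure D4:**
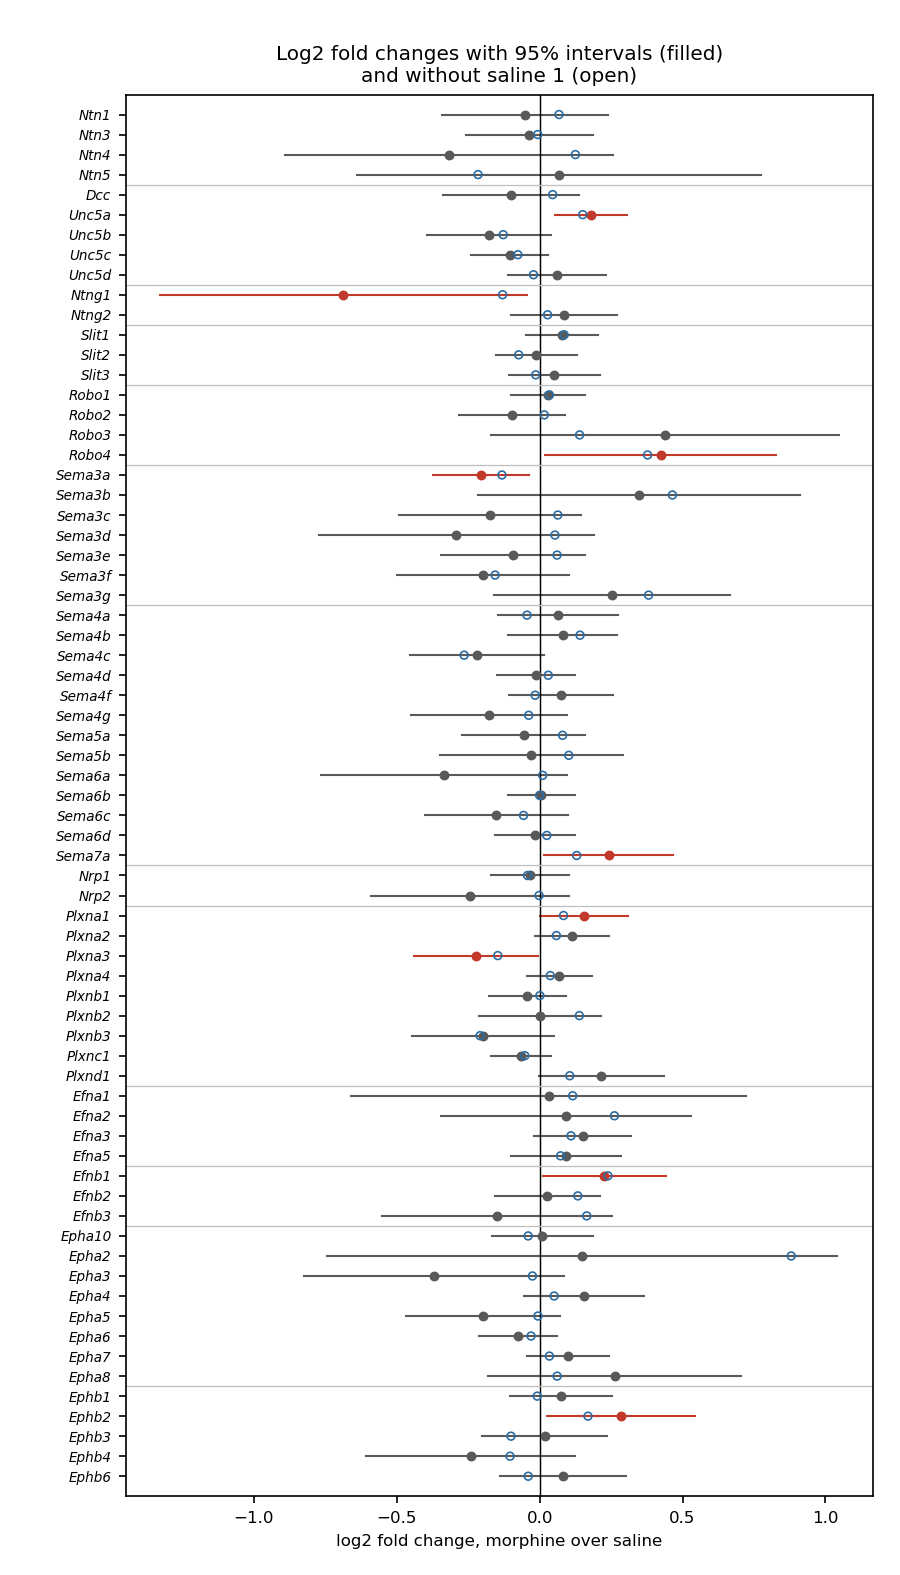
Log2 fold change of morphine over saline for the 69 tested genes, grouped by family: filled points with bars are the estimates from 6 libraries with 95% intervals (red, unadjusted p under 0.05 in edgeR), and open circles the estimates without saline 1. Unc5a moves from 0.18 to 0.15 and Ntng1 from -0.69 to -0.13.

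A list of 16 genes was drawn up as partners of netrins, Slits and their receptors, and 15 were tested. All 3 lists given here were chosen with earlier results of these data known, so their shares are descriptions only. An unadjusted p under 0.05 in edgeR was given to 2 higher genes of the 15 (13.3%, against 2.77% of all genes tested) and 0 lower ones. For 3 of the 15 all morphine libraries were above all saline libraries (20%, against 5.99%). Islr2, a membrane protein of axons also known as Linx, was at 75.9, 69.8 and 71.2 CPM in saline and 92.0, 89.0 and 88.0 CPM in morphine, with no overlap. Its log2 fold change was 0.31 ± 0.05 (adjusted p = 0.43 in edgeR and 0.030 in DESeq2), and 0.35 without saline 1 (adjusted p = 0.0030 in edgeR). Flrt3, a ligand of Unc5 receptors and latrophilins that also binds Robo1, was at 29.5, 26.4 and 28.6 CPM in saline and 35.6, 31.3 and 35.1 CPM in morphine (log2 fold change 0.27 ± 0.08, adjusted p = 0.59 in edgeR). Of the 14 L1, contactin and CRMP genes, which serve adhesion and semaphorin signalling, 0 were higher and 0 lower. Of 40 cytoplasmic effectors of guidance signalling, 1 was higher (2.5%), the kinase Pak1 (0.14 ± 0.06), and 2 were lower (5%, against 4.96% of all genes tested), among them the ephrin-B scaffold Grip1 (-0.30 ± 0.09). For 6 of the 40 all morphine libraries were above (15%) and for 2 all were below (5%, against 7.31%). Without saline 1, Grip1 was at -0.18 and Pak1 at 0.09 (unadjusted p = 0.079 for Pak1 in edgeR). Without saline 3, morphine 1 or morphine 3 Pak1 was at 0.11 to 0.15 (unadjusted p = 0.064 to 0.13 in edgeR). The medians of the 3 lists were 0.01, 0.02 and 0.03 on the log2 scale, against -0.01 over all genes tested.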

How the data were processed

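RNA of the mPFC was measured in 3 saline and 3 morphine samples by sequencing of rRNA-depleted, directional libraries, and groups were taken from the sample labels. The authors deposited a table of read counts per gene, not normalized, and of FPKM values, which equal these counts divided by a gene length and a library factor. As tools the submitters list HISAT2 2.1.0 and cutadapt 1.9.3, StringTie 1.3.3 and HTSeq 0.11.2, limma 3.40.6, DESeq 1.8.3 and DESeq2 1.26.0, with mm10 as the build and no role for each. The study names DEGseq for its long non-coding RNAs, and for mRNAs it gives thresholds without naming a tool. Here, the 18970 of 31763 genes that reached 10 counts in 3 or more libraries were normalized by TMM and tested in edgeR 4.0.16 (R 4.3.3) by its two-sided quasi-likelihood test, with adjustment by Benjamini and Hochberg over all genes tested. CPM used TMM library sizes. DESeq2 1.42.0, RLE factors, other filters, limma 3.58.1 on log2 FPKM and each library left out were alternatives. The fit was tested on simulated data. P-values set the difference between groups against the spread between samples, which may be technical. Exon overlaps are from the GENCODE annotation of GRCm38.

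The members and lists were chosen with earlier results of these data known. The genes named by rule were those past an unadjusted p of 0.05 or with groups that do not overlap, the highest of each family, those with 1 library over 1.5 times the next, and Ntng1, Ntng2, Unc5a, Ephb2 and Sema3a; others were added after their values were seen. From the partner lists, genes past an unadjusted p of 0.05 were named, except 1 that is not reported here. From 13 lists of cell type markers, summed per library, genes past that p were named, as were the 3 bulb genes most counted in saline 1.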

Additional observations from a re-analysis of the deposited data

How the results depend on the processing

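The count of guidance genes higher at an unadjusted p under 0.05 was 6 in edgeR and stayed within 1.5 times of that with DESeq2, RLE factors, no filter, 10 counts in all libraries and the replicate block. It was 1 in limma on log2(FPKM + 0.1), 1 on log2(FPKM + 1), 2 on log2(FPKM + 0.1) with no filter, 2 in DESeq2 without saline 1 (an alternative chosen after seeing the data) and 2 to 7 with each library left out (3 without saline 3, 2 without morphine 1, 3 without morphine 3). The lower count of 3 became 8 with no filter on low counts, 0 on both filtered FPKM scales, 1 on log2(FPKM + 0.1) with no filter, 1 in DESeq2 without saline 1 and 1 to 9 with each library left out (1 without saline 1, morphine 1 or morphine 3, 9 without saline 2, 5 without saline 3, 2 without morphine 2). With no filter, 1 gene, Ntng1, had an adjusted p under 0.05 in edgeR. The share of all genes called also moved with the fit. At an unadjusted p under 0.05, 4.96% were lower in edgeR, 3.13% in DESeq2 and 7.53% in edgeR without saline 1. For the other fits, the replicate block included, this share was not computed. Their counts cannot be told apart from a shift in calls over all genes. The 8 genes whose groups do not overlap became 11 to 20 with each library left out, where fewer samples make overlap rarer. The share of all genes tested without overlap was computed for 6 libraries only. The counts of 11 to 20 therefore have no share to be read against.

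Replicate numbers did not pair the samples: deviations of same-numbered samples correlated at 0.02, 0.01 and -0.04. With the replicate block 6 genes were higher and 3 lower, and 4 and 2 of them were shared with the fit without it; Robo3, Plxnd1 and Sema4c were among the 9 with the block and not among the 9 without it.

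With each library left out, the log2 fold change crossed 0 for 8 of the genes named by rule: Ntn3 (-0.11 to 0.016), Ntn4 (-0.53 to 0.12), Robo2 (-0.15 to 0.016), Sema3c (-0.28 to 0.063), Sema3d (-0.47 to 0.053), Sema6a (-0.49 to 0.010), Efnb3 (-0.30 to 0.16) and Ephb6 (-0.040 to 0.16). The sign turned without morphine 2 for Ntn3 and without saline 1 for the other 7, which in DESeq2 without saline 1 were at 0.13, 0.017, 0.064, 0.056, 0.012, 0.17 and -0.039. Without saline 1 the sign turned for 24 of all 69 tested genes. The cause was not tested. Unc5a stayed past the unadjusted threshold in all 15 alternatives. With each of the 6 libraries left out, Efnb1 stayed past it in 3 fits and Robo4 in 1. Ntng1, Sema3a, Sema7a, Plxna1, Plxna3 and Ephb2 each stayed past it in 2. Over these fits the log2 fold change ran from -0.90 to -0.13 for Ntng1 and from -0.28 to -0.13 for Sema3a. It ran from 0.08 to 0.22 for Plxna1, from -0.30 to -0.15 for Plxna3 and from 0.18 to 0.27 for Efnb1.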
